A study of Mus musculus with 4 samples.

Results

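The 10 genes described here mark the contractile and supporting cells of blood vessel walls and other smooth muscle. They were taken by symbol: 7 contractile genes (*Acta2*, *Tagln*, *Myh11*, *Cnn1*, *Des*, *Mylk* and *Lmod1*) and 3 pericyte genes (*Pdgfrb*, *Rgs5* and *Cspg4*), with the non-control probes whose accession leads to each symbol. All 10 were found, on 17 of the 56605 probes of the array, 14 of them for the contractile genes and 3 for the pericyte genes. They are 10 of the 45604 genes tested.

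Gene expression was measured in septal nasal mucosa, labelled as olfactory epithelium, of C57BL/6J mice (tissue and strain from the sample labels), male by the methods, that were 8 weeks (young adult) or 16 months (aged) old. No genetic change or treatment is given for either age. Each age had 2 pools, each pool held the RNA of 5 mice, and each was hybridized to 1 one-color array, so n = 2 pools per age throughout. By the methods, the mice of an age set aside for RNA work were too few to fill both pools with different animals, so the pools of an age may share mice and may not be independent. A pool also hides the spread between its mice, so P-values measure only the spread between these arrays. The arrays also carry a description and an age tag that speak of silica in the lung, which go against their titles and were not used.

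Smooth muscle cells shorten when calcium and calmodulin activate myosin light chain kinase, which phosphorylates myosin and lets it pull on actin filaments. Their contractile genes are switched on together by serum response factor (SRF) with its partner myocardin, which act through a short DNA element, the CArG box. Pericytes are the mural cells of capillaries and small venules. They are recruited by platelet-derived growth factor B from the endothelium through the receptor encoded by *Pdgfrb*. The mucosa below the olfactory epithelium holds a dense bed of vessels and glands, so these genes can come from arterioles, veins, capillaries and, for several contractile genes, the myoepithelial cells of glands.

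The scanner software gave values for 62976 spots per array, of which 63.1 to 76.8% of the 59305 non-control spots were well above background, the software's flag for a spot clearly brighter than its surroundings. The median local background ran from 32 to 67, and no spot was saturated. A level below is a normalized intensity, and levels of different genes cannot be ranked because each probe has its own brightness. All 9 markers of olfactory epithelium were well above background, and *Omp*, the marker of mature olfactory neurons, was at 300826 and 286061 in young adult mice and at 317836 and 332591 in aged mice. *Xist*, which is transcribed in females, was well above background on all 4 arrays (612 to 645), and only 1 of 10 probes for 7 Y-linked genes was so on any array. These values go against the stated sex in both ages alike.

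Of the 10 genes, 4 were lower in aged mice and none was higher at the study's criteria of P below 0.05 and FDR below 0.25 in limma. Over all genes tested, 3.98% were called, 2.33% lower and 1.65% higher. Among the 25513 genes with a mean level of at least 100, 3.28% were called lower and 2.13% higher. The 4 genes were *Cspg4*, *Myh11*, *Mylk* and *Cnn1*, which fell by 0.70, 0.64, 0.56 and 0.52 on the log2 scale. *Pdgfrb* also had a P below 0.05 (0.0188) but an FDR of 0.291. At an unadjusted P below 0.05, 5 genes were lower and 0 higher, where 7.08% of all genes were lower. *Myh11* and *Cspg4* also met the study's limits for a differentially expressed gene (DEG), a mean level of at least 100 and a fold change of at least 1.5, which 1.15% of all genes met as lower and 0.814% as higher. In these bulk samples, fewer cells of a type and less RNA per cell cannot be told apart.

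With any of the 4 arrays left out, whether young adult array 1 or 2 or aged array 1 or 2, limma called none of the 10 genes and no gene on the array. The 4 genes stayed lower each time, by between 0.47 and 0.73 on the log2 scale. For 6 of the 10 genes the higher aged value was under the lower young adult value, and for 2 the ages were separated the other way, against 21.8% and 24.2% of all genes. The median log2 fold change was -0.34 for the 10 genes and 0.0093 for all genes.

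**Figure D1:**
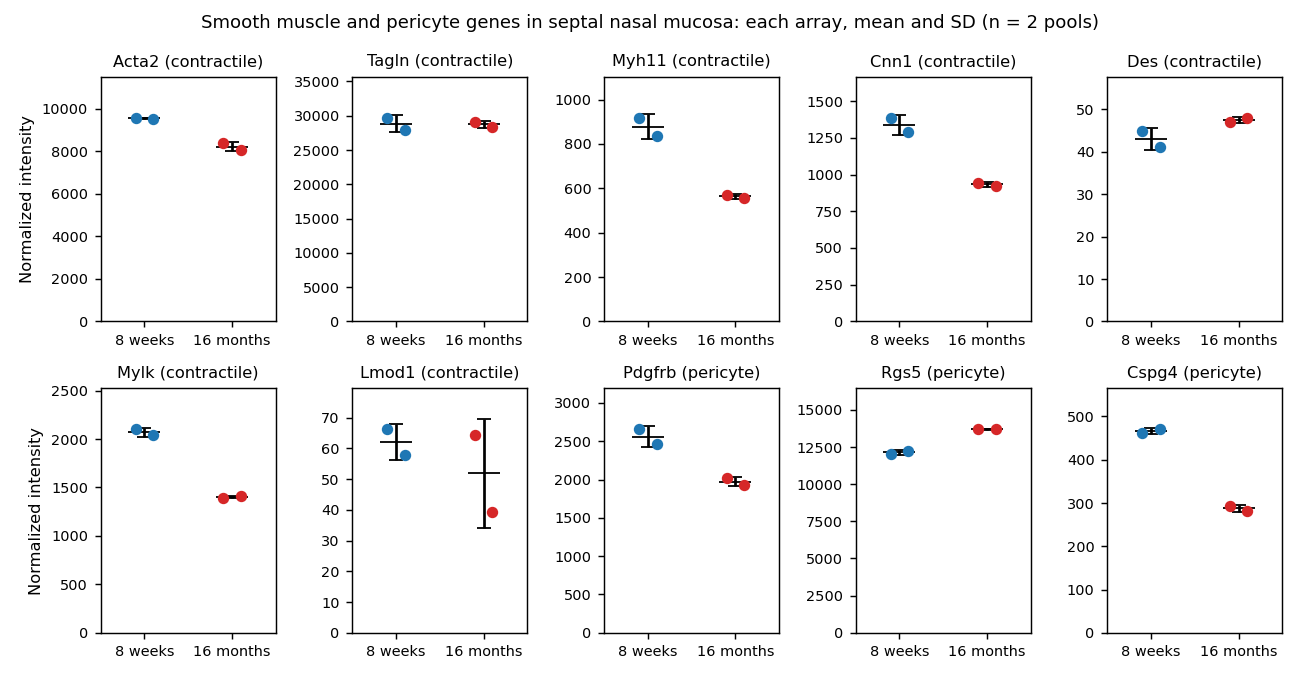
Normalized intensity (vertical axis, linear, from 0) of the 10 genes at 8 weeks (blue) and 16 months (red). Points are arrays, and bars are the mean and SD of the 2 pools. *Myh11*, *Cnn1*, *Mylk* and *Cspg4* separate by age with the aged arrays lower, while the *Tagln* arrays interleave and both aged *Rgs5* arrays lie above the young adult ones.

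*Myh11* encodes the smooth muscle myosin heavy chain, the motor of the contractile filament and the marker most restricted to smooth muscle. Its level was 918 and 838 in young adult mice and 570 and 557 in aged mice. The ages did not overlap, and the gap was several times the spread within either age. Means were 878 ± 56.3 (SD, n = 2 pools) and 563 ± 9.2, a 1.56-fold fall (log2 fold change -0.64, standard error 0.090, FDR = 0.208 by limma).

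*Mylk* encodes myosin light chain kinase, the enzyme that starts contraction. Its level was 2101 and 2038 in young adult mice and 1392 and 1410 in aged mice. Arrays of one age were close together and the ages well apart, with means of 2070 ± 45.0 (SD, n = 2 pools) and 1401 ± 12.6. The log2 fold change was -0.56 (standard error 0.076, FDR = 0.205 by limma), a 1.48-fold fall.

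*Cnn1* encodes calponin 1, which binds actin and restrains the myosin motor. Levels of 1385 and 1289 in young adult mice stood against 945 and 922 in aged mice. Again the ages did not overlap. The means were 1337 ± 68.5 (SD, n = 2 pools) and 933 ± 15.9, and the log2 fold change was -0.52 (standard error 0.085, FDR = 0.226 by limma). The call of *Cnn1* was lost with scaling to the 75th percentile (FDR = 0.262), with its most intense probe alone (0.278) and with averages on the linear scale (0.265).

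The other 4 contractile genes were not called. *Acta2*, which encodes smooth muscle α-actin, was at 9581 and 9532 in young adult mice and at 8379 and 8082 in aged mice. The aged arrays were lower without overlap, by a log2 fold change of -0.22 (95% interval -0.44 to 0.01, FDR = 0.396 by limma). *Acta2* passed the criteria with dim probes left out (FDR = 0.137) and with an intensity trend in the variance model (0.0421). Over all genes, 3671 of 29495 were called lower with dim probes left out and 3518 of 45604 with the trend. *Tagln* encodes transgelin, an actin-binding protein of the calponin family. Its level was 29696 and 27989 in young adult mice and 29127 and 28336 in aged mice, so that the aged arrays lay between the young adult ones. The log2 fold change of *Tagln* was -0.0051, with a 95% interval of -0.25 to 0.24 that leaves out falls as large as those of *Myh11*, *Mylk* and *Cnn1*.

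*Des* encodes desmin, the intermediate filament of muscle, and was close to background. Its single spot had a median signal of 85, 65, 83 and 68 on the young adult and then the aged arrays, over a local background of 66, 35, 59 and 42. It was well above background on 1 array of each age. The normalized level was 44.9 and 41.1 in young adult mice and 47.0 and 48.0 in aged mice (log2 fold change 0.14, FDR = 0.58 by limma). With the background that the software itself had subtracted, *Des* had a log2 fold change of -0.24 with scaling to the 75th percentile and -0.14 with quantile normalization.

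*Lmod1* encodes leiomodin 1, which seeds actin filaments in smooth muscle. Its levels were 66.3 and 57.9 in young adult mice, where the probe was well above background, and 64.5 and 39.4 in aged mice, where it was not well above background. The ages overlapped, with means of 62.1 and 51.9. The level in aged mice is then only a bound, and the fitted log2 fold change of -0.30 (95% interval -1.18 to 0.58, FDR = 0.713 by limma) gives no settled direction. Without aged array 2 the log2 fold change of *Lmod1* was 0.06.

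Promoter sequences are shown for genes that fell and, beside them, for the best-known CArG-regulated gene, *Acta2*, and for the pericyte gene *Rgs5* that did not fall. Each is the 250 bases before an annotated start (RefSeq, GRCm38.p6). Windows were found for 7 of the 10 genes. Those of *Tagln*, *Myh11* and *Pdgfrb* are not shown. Capitals mark runs of 10 bases that are 1 letter away from a CArG box.
Acta2, chr19:34255374-34255623, minus strand: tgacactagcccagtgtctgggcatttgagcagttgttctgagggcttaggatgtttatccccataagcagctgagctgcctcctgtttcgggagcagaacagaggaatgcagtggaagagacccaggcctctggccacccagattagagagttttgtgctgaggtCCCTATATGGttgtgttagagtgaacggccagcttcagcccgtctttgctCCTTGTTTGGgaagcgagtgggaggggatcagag
Cnn1, chr9:22099003-22099252, plus strand: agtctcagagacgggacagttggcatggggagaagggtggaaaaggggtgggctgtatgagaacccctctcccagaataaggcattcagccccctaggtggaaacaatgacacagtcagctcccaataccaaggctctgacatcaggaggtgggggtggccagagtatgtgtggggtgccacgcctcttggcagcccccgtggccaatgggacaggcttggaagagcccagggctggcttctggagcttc
Mylk, chr16:34784700-34784949, plus strand: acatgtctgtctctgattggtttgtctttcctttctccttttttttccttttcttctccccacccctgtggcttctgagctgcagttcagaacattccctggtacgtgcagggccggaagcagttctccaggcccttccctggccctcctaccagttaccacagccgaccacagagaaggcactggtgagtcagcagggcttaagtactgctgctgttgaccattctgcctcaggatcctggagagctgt
Cspg4, chr9:56864854-56865103, plus strand: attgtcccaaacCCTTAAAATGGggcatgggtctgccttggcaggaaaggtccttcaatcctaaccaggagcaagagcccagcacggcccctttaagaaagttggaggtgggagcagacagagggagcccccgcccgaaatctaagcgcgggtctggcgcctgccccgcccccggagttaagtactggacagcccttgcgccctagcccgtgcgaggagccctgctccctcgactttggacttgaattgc
Rgs5, chr1:169655251-169655500, plus strand: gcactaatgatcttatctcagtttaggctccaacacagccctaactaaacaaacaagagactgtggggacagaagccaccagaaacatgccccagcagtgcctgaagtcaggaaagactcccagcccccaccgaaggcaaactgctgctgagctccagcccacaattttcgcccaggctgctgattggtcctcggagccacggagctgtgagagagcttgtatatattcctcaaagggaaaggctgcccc

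The CArG box reads the same on both strands. None of the 7 windows held an exact box, which 1.47% of all 32851 windows do. A run 1 letter away, which 18.6% of all windows hold, stood in 3 of the 7. In *Acta2* these runs began 84 and 34 bases before the start, and in *Lmod1* 189 and 164 bases before it. *Cspg4* had overlapping runs that began 238 and 237 bases before its start. The windows of *Cnn1*, *Mylk*, *Rgs5* and *Des* held none. The letters TGGGAA, the core of the site of the Notch effector RBPJ, were searched on both strands and stood in the *Acta2* window only, against 21.6% of all windows. A missing match says only that these letters are not in this window.

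The pericyte genes split. *Cspg4* encodes the NG2 proteoglycan of the pericyte surface, which glial progenitors also carry. Its level was 461 and 471 in young adult mice and 293 and 282 in aged mice. This was the largest fall among the 10 genes, from 466 ± 6.97 (SD, n = 2 pools) to 287 ± 7.22, or 1.62-fold (log2 fold change -0.70, standard error 0.077, FDR = 0.188 by limma). Before normalization the spot read 547 and 474.5 in young adult mice against 330 and 294 in aged mice, over local backgrounds of 31.5 to 70, so the signal was well above background on each.

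*Pdgfrb* was at 2657 and 2460 in young adult mice and 2015 and 1934 in aged mice. Both aged arrays were lower, and the log2 fold change was -0.37 (95% interval -0.64 to -0.11, FDR = 0.291 by limma). *Pdgfrb* passed the criteria in 6 of the 14 other settings tested on all 4 arrays, among them a normexp offset of 16 (FDR = 0.234) and dim probes left out (0.0744). Over all genes, 1691 of 45604 were called lower with that offset and 3671 of 29495 with dim probes left out. *Rgs5* encodes a GTPase-accelerating protein that damps G protein signalling and is a widely used pericyte marker. Its level was 12036 and 12232 in young adult mice and 13681 and 13698 in aged mice. Here both aged arrays were higher, by a log2 fold change of 0.17 (95% interval -0.05 to 0.40, FDR = 0.458 by limma). *Rgs5* was called higher with dim probes left out (FDR = 0.18) and with an intensity trend (0.0722). Over all genes, 3578 of 29495 were called higher with dim probes left out and 3612 of 45604 with the trend.

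**Figure D2:**
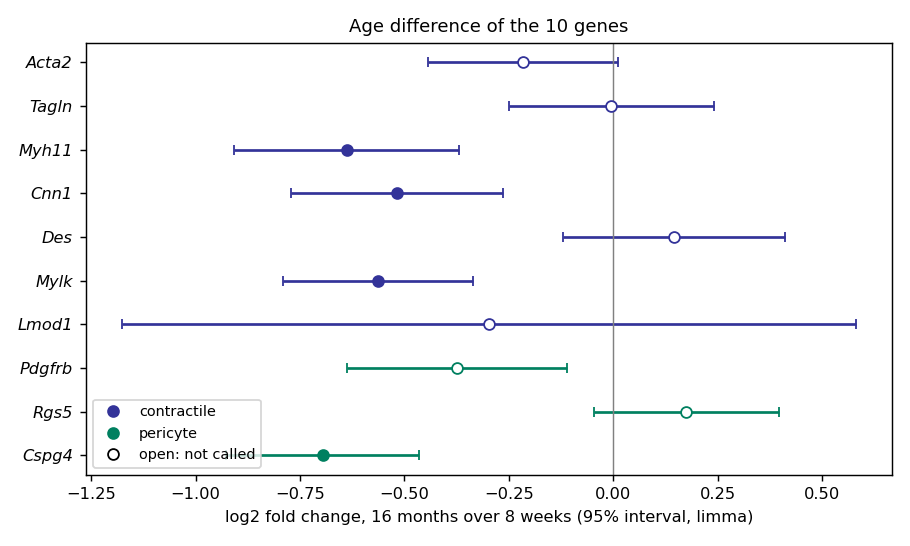
log2 fold change at 16 months over 8 weeks with its 95% interval from limma for each gene, contractile genes in blue and pericyte genes in green. Filled points passed P below 0.05 and FDR below 0.25. The filled points lie between -0.52 and -0.70, *Tagln* is near 0 and the interval of the dim *Lmod1* is the widest.

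The contractile and the pericyte genes were then set side by side. Of the 7 contractile genes, 3 were called lower (median log2 fold change -0.30), and of the 3 pericyte genes, 1 was called lower (median -0.37). Among all genes tested, 2.33% were called lower, and the median was 0.0093. The contractile median is the value of the dim *Lmod1*. It was less negative than the pericyte median here, but the order turned without aged array 1 (-0.54 against -0.40). The order also turned with the processed intensity (-0.51 against -0.45 scaled to the 75th percentile, -0.52 against -0.47 quantile normalized). Without aged array 2 the contractile median was -0.19. Relative to each gene's young adult mean, the contractile genes averaged -0.24 and -0.36 on the 2 aged arrays on the log2 scale, and the pericyte genes -0.28 and -0.32. The contractile minus pericyte difference was 0.0399 and -0.0399 in young adult mice, which lie evenly about 0 by construction, and 0.0402 and -0.0414 in aged mice. The difference between arrays of one age was thus far larger than that between the ages.

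Ratios between genes of one group are given as a description, since the pairs were chosen with the changes of the genes known. The log2 ratio of *Cspg4* to *Rgs5* within an array changed by -0.87 from young adult to aged mice, with values of -4.71 and -4.70 against -5.55 and -5.60. Among contractile genes, the ratio of *Myh11* to *Tagln* changed by -0.63, that of *Mylk* to *Tagln* by -0.56 and that of *Acta2* to *Tagln* by -0.21. In each of these 4 ratios the ages did not overlap.

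Replicate 1 of each age was hybridized on a common slide, and the remaining arrays were on separate slides. Within the shared slide the log2 differences were -0.69 for *Myh11*, -0.59 for *Mylk*, -0.55 for *Cnn1* and -0.66 for *Cspg4*. Between the other arrays they were -0.59, -0.53, -0.48 and -0.74. For *Acta2* the 2 values were -0.19 and -0.24, for *Pdgfrb* -0.40 and -0.35, and for *Rgs5* 0.18 and 0.16. Each is a difference of 1 array of each age and has no test.

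Of the 10 genes, 4 have several probes, and these moved alike. All 3 *Myh11* probes were lower in aged mice (log2 fold changes of -0.59, -0.58 and -0.75). The first of them is assigned to one RefSeq transcript and the other 2 to another. The *Mylk* probes had log2 fold changes of -0.64, -0.59 and -0.45, the *Cnn1* probes -0.53 and -0.51, and the *Acta2* probes -0.18, -0.22 and -0.25. When each probe was tested by itself, 6 of the 17 were called lower and 0 higher, against 2.65% and 1.84% of all probes. These 6 comprise 2 probes of *Myh11*, 2 of *Mylk*, 1 of *Cnn1* and the one of *Cspg4*.

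**Figure D3:**
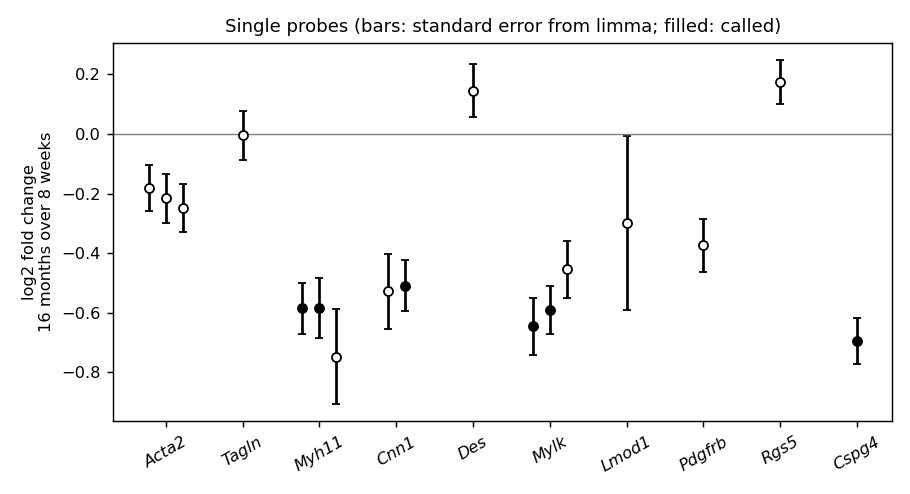
log2 fold change at 16 months over 8 weeks of each of the 17 probes (vertical axis), grouped by gene, with the standard error from limma. Filled points passed P below 0.05 and FDR below 0.25 over all probes. The 3 *Myh11* probes lie between -0.75 and -0.58 and the 3 *Acta2* probes between -0.25 and -0.18.

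Beyond the 10 genes, 31 other genes of the contractile apparatus were followed. Of these, 2 (6.45%) were called lower and 0 higher by limma, while 9 lower and 0 higher had an unadjusted P below 0.05. Over all genes, 2.33% were called lower. The count of this list depended on the setting, with 15 called lower with dim probes left out, 14 with an intensity trend, 8 with an offset of 50 and 0 with the replicate block or with any array left out. Over all genes, 3671 of 29495 were called lower with dim probes left out, 3518 of 45604 with an intensity trend and 2475 of 45604 with an offset of 50. The median log2 fold change of the 31 genes was -0.21. For 22 of them the ages were separated with the aged arrays lower, against 21.8% of all genes. *Myl9*, the regulatory light chain that *Mylk* phosphorylates, fell from 74179 ± 2548 (SD, n = 2 pools) to 51886 ± 445 (log2 fold change -0.52, FDR = 0.214). *Smtn*, which encodes the actin-binding smoothelin, fell from 1386 ± 28.6 to 995 ± 2.31 (log2 fold change -0.48, FDR = 0.220).

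Of the 29 genes on this list with a promoter window, 6 held an exact CArG box (*Myl9*, *Myl6*, *Cnn2*, *Vcl*, *Fhl1* and *Fhl2*), against 1.62% of all 27025 genes with a window. The box of *Myl9*, the called gene among them, began 161 bases before the start.
Myl9 box: CCTAATAAGG

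Among 10 regulators of this programme, 0 were called lower and 1 higher, against 2.33% and 1.65% of all genes. The count called lower depended on the setting, with 3 with dim probes left out and 3 with an intensity trend. Over all genes, these settings called 3671 of 29495 and 3518 of 45604 lower. *Srf* was at 2136 and 2249 in young adult mice and 1996 and 2198 in aged mice, with overlapping ages (log2 fold change -0.07, FDR = 0.802 by limma). *Myocd*, which encodes myocardin, was at 190 and 188 against 177 and 176 (log2 fold change -0.10, FDR = 0.639). Its aged arrays lay just below the young adult ones. *Gata6*, a transcription factor of vascular smooth muscle among other tissues, rose from 1057 ± 28.2 (SD, n = 2 pools) to 1404 ± 11.7 (log2 fold change 0.41, FDR = 0.247).

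Of 22 other pericyte genes, 5 (22.7%) were called lower and 0 higher, and 10 were lower and 0 higher at an unadjusted P below 0.05. With an offset of 50 or with dim probes left out, 11 were called lower, and 0 with the replicate block or with any array left out. Over all genes, 2.33% were called lower and 7.08% were lower at an unadjusted P below 0.05. The number of all genes called lower was 2475 of 45604 with an offset of 50 and 3671 of 29495 with dim probes left out. The largest fall on this list was that of *Kcnj8*, from 738 ± 54.7 (SD, n = 2 pools) to 381 ± 6.00 (log2 fold change -0.95, FDR = 0.184 by limma). It encodes the pore of an ATP-sensitive potassium channel. *Abcc9*, which encodes the regulatory subunit of the same channel, fell from 275 ± 17.2 to 183 ± 14.2 (-0.59, FDR = 0.242). *Ednra*, a receptor for the vasoconstrictor endothelin, had a log2 fold change of -0.83 (FDR = 0.196). *Aoc3*, an amine oxidase of vascular smooth muscle and adipocytes, also had one of -0.83 (FDR = 0.189), and *Ndufa4l2*, a mitochondrial protein, one of -0.57 (FDR = 0.242). The median of this list was -0.26. Its *Tbx18* stayed near background throughout (not well above background).

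In the platelet-derived growth factor family, 2 of 6 genes were called lower and 0 higher, with 3 lower at an unadjusted P below 0.05. The share of all genes called lower was 2.33%. In this family 1 gene was called lower with the processed intensity scaled to the 75th percentile, 4 with dim probes left out and 0 with the replicate block. The first 2 of these settings called 861 of 45604 and 3671 of 29495 of all genes lower. *Pdgfb*, the endothelial ligand of the receptor encoded by *Pdgfrb*, was at 1070 and 1013 in young adult mice and 647 and 695 in aged mice, without overlap (log2 fold change -0.63, FDR = 0.208 by limma). *Pdgfd*, a further ligand of that receptor, had a log2 fold change of -0.61 (FDR = 0.248). *Pdgfra*, the related receptor of fibroblasts, had one of -0.29 and was not called (FDR = 0.433). Of 7 Notch pathway genes, 0 were called by limma, and 1 was lower at an unadjusted P below 0.05. *Notch3*, the Notch receptor of mural cells, was at 6684 and 6650 in young adult mice and 6114 and 6279 in aged mice (log2 fold change -0.11, FDR = 0.620).

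**Figure D4:**
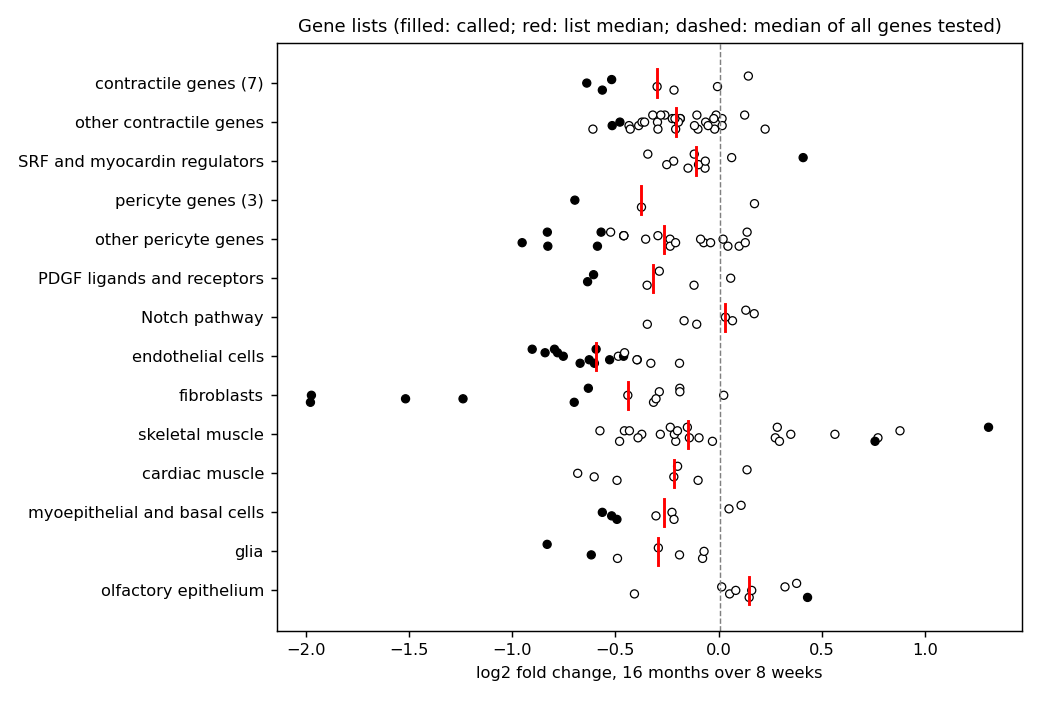
log2 fold change at 16 months over 8 weeks (horizontal axis) of every gene on each list. Filled points passed P below 0.05 and FDR below 0.25, red lines are list medians and the dashed line is the median of all genes tested. Endothelial genes all lie below 0 with a median of -0.59, and skeletal muscle genes spread to both sides, up to 1.31 for *Myh7*.

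Markers of other cells moved as well. Of 17 endothelial markers, 11 were called lower and 0 higher, and all 17 were separated by age with the aged arrays lower. Among all genes tested, 2.33% were called lower, 1.65% higher, and 21.8% were separated this way. The summed level of the 17 endothelial markers was 48944 to 49987 in young adult mice and 31452 to 31938 in aged mice. The largest falls were those of *Sox18* (log2 fold change -0.90), *Tie1* (-0.84), *Egfl7* (-0.79), *Emcn* (-0.78) and *Eng* (-0.75), and *Pecam1* was at -0.33 (FDR = 0.361 by limma). Of 13 fibroblast markers, 6 were called lower and 0 higher, led by *Col1a1* (-1.98) and *Col3a1* (-1.97), and the summed level was 233082 to 257451 in young adult mice and 124965 to 132652 in aged mice. The summed levels of both lists are weighted toward genes with bright probes. The part of these cell types in the fall of the 4 genes was not tested.

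For gland and basal cells, 8 markers were followed, 3 of which are contractile genes of the list above. *Krt5*, a keratin of basal and myoepithelial cells, fell (log2 fold change -0.49, FDR = 0.216 by limma), and *Krt14* was at 8652 and 8533 against 7163 and 6770 (-0.30, FDR = 0.313). With the 3 shared genes included, 3 were called lower and 0 higher, and the summed level was 49747 to 49769 in young adult mice and 39906 to 40927 in aged mice. Of 7 glial markers, which bear on *Cspg4*, 2 were called lower, among them *Fabp7* (log2 fold change -0.62), and 0 higher. The shares of all genes called were 2.33% lower and 1.65% higher. *Olig1*, *Olig2* and *Sox10* were not called, with log2 fold changes of -0.08, -0.19 and -0.07 (FDR = 0.722, 0.465 and 0.776 by limma). The summed level of the 7 markers was 37452 to 38193 in young adult mice against 26792 to 28264 in aged mice. This sum and that of the gland and basal markers are weighted toward genes with bright probes. Among the glial markers these were *Fabp7* and *S100b*, with means of 17103 and 11697 in young adult mice. The part of gland, basal and glial cells in the result was not tested.

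Markers of other kinds of muscle were followed as well. Of 24 skeletal muscle markers, 0 were called lower and 2 higher, with 2 lower and 3 higher at an unadjusted P below 0.05. Among all genes tested, 2.33% were called lower and 1.65% higher. Taken singly, 15 of the 24 were lower with age and 9 higher, with a median log2 fold change of -0.15. Their summed level nevertheless rose, from 8382 to 8838 on the young adult arrays to 11187 to 11630 on the aged ones. Such a sum is weighted toward genes with bright probes, such as *Tnnt1*, slow troponin T. *Tnnt1* rose from 3674 ± 49.2 (SD, n = 2 pools) to 6215 ± 127 (log2 fold change 0.76, FDR = 0.185 by limma). *Myh7*, the slow myosin heavy chain, rose from 499 ± 9.09 to 1237 ± 10.7 (log2 fold change 1.31, FDR = 0.168). *Acta1*, skeletal α-actin, was at 1575 and 1924 against 1456 and 1562 (-0.21, FDR = 0.605). None of the 4 arrays had *Myh4*, *Myog* or *Neb* well above background. Every other marker of this list was so on at least 1 array. *Myl1*, *Mylpf*, *Tnnt3*, *Tnni2*, *Tnnc2*, *Atp2a1* and *Tcap* were among those well above background on all 4 arrays. Of 7 cardiac markers, 0 were called in limma in either direction, and 0 had an unadjusted P below 0.05. In some other settings 1 cardiac marker was called lower, among them an offset of 50, where 2475 of 45604 genes were. Among the 9 olfactory epithelium markers, 0 were called lower and 1 higher (*Stoml3*, 0.43, FDR = 0.244), and *Omp* had a log2 fold change of 0.15 (FDR = 0.549). Of the 9, 8 were higher in aged mice and 1, *Gap43* of immature olfactory neurons, was lower. *Gap43* narrowly missed the call (log2 fold change -0.41, FDR = 0.251 by limma). In some other settings 1 marker of this list was called lower, among them an offset of 16, where 1691 of 45604 genes were.

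Across the processing settings the 4 called genes changed little in size. With all 4 arrays, or with the 1 slide that held both ages, the log2 fold change stayed between -0.70 and -0.59 for *Myh11*, between -0.59 and -0.54 for *Mylk*, between -0.55 and -0.47 for *Cnn1* and between -0.71 and -0.61 for *Cspg4*. *Rgs5* stayed between 0.17 and 0.19. Only the dim genes *Des* and *Lmod1* moved widely, from -0.24 to 0.18 and from -0.83 to -0.04.

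**Figure D5:**
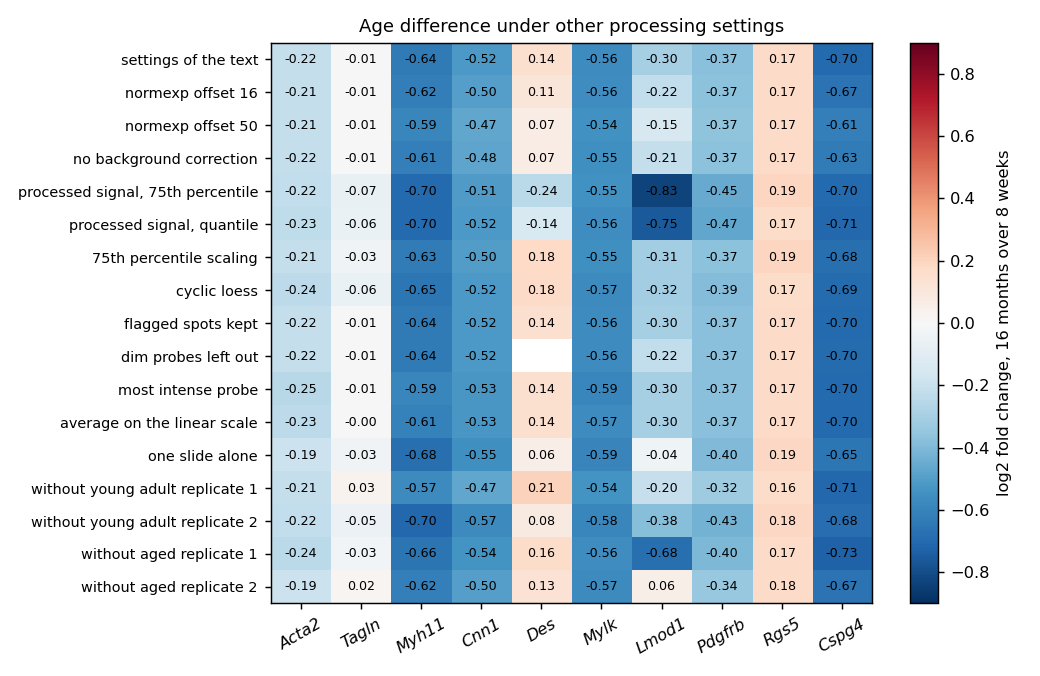
log2 fold change at 16 months over 8 weeks (color and printed value) of each gene (columns) under each processing setting that can change it (rows). Blue is lower and red is higher in aged mice, and the blank cell marks a gene with no value. The columns of *Myh11*, *Cnn1*, *Mylk* and *Cspg4* are blue in every row, and those of *Des*, *Lmod1* and *Tagln* change sign.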

How the data were processed

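RNA of septal nasal mucosa was labelled with Cy3 and hybridized by the authors to Agilent SurePrint G3 Mouse arrays. They extracted the spots with Feature Extraction 11.0.1.1 and deposited, for each array, the median intensity of each spot and of its local background, a processed intensity with the background subtracted, and quality flags, without normalization between arrays. The deposited table of the whole series equalled the processed intensity at all 62976 spots. The array design is on mm9, and no gene coordinates were taken from it. The submitters' processing notes name R 3.2.1.

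Median intensities were corrected against local background with the normexp method of limma 3.58.1 (offset 0, R 4.3.3). Control and outlier spots were left out, spots of a probe averaged as log2 values, arrays quantile normalized and probes of a gene averaged. Accessions matched 32994 of 56605 probes to symbols in a RefSeq table of GRCm38.p6, and the others kept their identifier. The 12 genes without a value on every array were left out. Ages were compared by lmFit and eBayes without covariates, two-sided, with Benjamini-Hochberg FDR over all 45604 genes, on 2 residual and 1.38 prior degrees of freedom. Genes were called at P below 0.05 and FDR below 0.25, the methods' criteria. The fit was tested on simulated data. A DEG also had a mean level of at least 100 and a fold change of at least 1.5. Precision is limited by how few arrays there are and, where probes are dim, by their signal over background.

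The 10 genes, the lists and the tests were chosen with earlier results of these data known. All 10 genes were named. From the other lists the called genes were named, at most the 5 with the largest change in each, and *Myocd*, *Srf*, *Notch3*, *Pdgfb*, *Pdgfra*, *Acta1*, *Pecam1*, *Krt14* and *Omp* whatever their values. One gene that this rule would name is not reported here. Other genes named, such as those with a CArG box, were chosen after their values were seen. The alternatives were the processed intensity, uncorrected signals, offsets of 16 and 50, other scalings, flagged spots kept, dim probes left out, other averages of probes, an intensity trend, a replicate block, 1 slide alone, each array left out and other limits.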

Additional observations from a re-analysis of the deposited data

How the results depend on the processing

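With 4 arrays, the 10 genes kept their direction in each alternative except *Des*, which had a log2 fold change of -0.24 with the processed intensity scaled to the 75th percentile and -0.14 with it quantile normalized, and which had no value with dim probes left out. With 1 array left out, *Tagln* ran from -0.049 to 0.035, above 0 without young adult array 1 (0.035) or aged array 2 (0.015), and *Lmod1* from -0.68 to 0.056, above 0 without aged array 2. The number of genes called lower, 4, was between 3 and 6 in 13 alternatives on all 4 arrays, and 0 with an FDR below 0.05, with the replicate block and with any array left out (0 to 0). The number called higher was 1 with dim probes left out and 1 with an intensity trend. Of the DEGs, 2 of the 10 genes in all (*Myh11* and *Cspg4*, both lower, against 1.15% of all genes), 0 were left with an FDR below 0.05, with the replicate block or with any array left out (0 to 0), and without limits on level and fold change 4 were counted. The median of the contractile genes, -0.30, was -0.21 with an offset of 50, -0.22 without background correction, -0.51 and -0.52 with the processed intensity (75th percentile and quantile), -0.19 on the shared slide normalized alone and -0.54 to -0.19 with an array left out. The median of the pericyte genes, -0.37, was -0.45 and -0.47 with the processed intensity, -0.40 on the shared slide and -0.43 to -0.32 with an array left out. The cause of these differences was not tested. The replicate numbers did not pair the arrays (correlation of the deviations -0.08 for number 1, 2 pairs), and the replicate block, which leaves 1 residual degree of freedom fewer, took the calls over all genes from 1817 to 0. Over all genes, 7249 were called with dim probes left out, 7130 with an intensity trend, 4582 with an offset of 50 and 1410 with scaling to the 75th percentile. Apart from the block and the stricter FDR, the number called lower ran from 2 to 15 among the other contractile genes, from 4 to 11 among the other pericyte genes, from 9 to 15 among endothelial, from 6 to 10 among fibroblast, from 2 to 6 among myoepithelial and from 1 to 5 among glial markers with all 4 arrays. Among the 10 regulators, the number called lower ran from 0 to 3 in the same settings. It ran from 1 to 4 in the platelet-derived growth factor family and from 0 to 2 among skeletal muscle markers. For Notch pathway genes, cardiac markers and olfactory epithelium markers it ran from 0 to 1 each. The slide as a random block, tried after seeing the data, could not be fitted. Signal over background limits *Des* and *Lmod1*.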
